A study of Sus scrofa with 10 samples.

Results

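The genes described here were 100 of the 1513 genes compared in longissimus lumborum, the loin muscle, of Alentejano (AL) and Bísaro (BI) pigs, and they were chosen by how closely their values followed the main axis of difference between the 10 animals. Genes whose normalised count averaged 50 or more in the AL pigs and also in the BI pigs entered a principal component analysis of log2(value + 1), centred for each gene, and the first component was turned so that the pig AL46 had a positive score. The 100 genes with the highest Pearson r to that score over the 10 pigs were taken, after genes of the mitochondrial genome and genes whose symbols begin with RPL, RPS, MRPL, MRPS or NDUF had been left out. All 100 passed the minimum of 50 by construction, 91 carry a gene symbol, and 9 are known only by an identifier. The measured values of all 10 pigs selected these genes, so that their rise along the component is a description and was not tested. Breed, base composition, position and the genes on the opposite strand were not used by the choice, except that the minimum of 50 was asked of each breed.

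Each group held 5 purebred castrated males of a single breed, 5 AL and 5 BI, with no treatment that separated them and 1 stranded RNA library for each pig. Husbandry was the same for AL and BI, in a free-range system on commercial feed. A weight of 150 kg is given for every pig, which the labels assign to the carcass and the study's methods to the animal. Age at slaughter, kinship and the RNA quality of the single pigs are not given in the sources used here. The p-values below measure the spread between these 10 animals, and no pigs were pooled.

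Skeletal muscle burns glucose from its own glycogen. Glycogen phosphorylase releases the sugar, the glycolytic enzymes split it, and creatine kinase buffers the ATP that the myosin heads and the calcium pump of the sarcoplasmic reticulum consume. Fast fibres, which make up most of the loin of a pig, carry their own isoforms of the actinin, the myosin-binding protein and the calcium pump, and depend on glycolysis more than slow fibres do. Bulk RNA cannot tell fewer fibres of a type from less RNA per fibre.

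The promoters of ATP2A1 and HRC are shown first, as those of the 3 calcium-handling members that hold letters bound by muscle transcription factors. Each line holds the 250 bases before the RefSeq gene start, 5′ to 3′ on the strand of the gene, read from Sscrofa11.1. The capitals mark the E-box CAGCTG, the letters bound by MyoD and myogenin. ATP2A1 (the fast-fibre calcium pump SERCA1) lies at chr3:18545064-18568312 on the plus strand, with its promoter at chr3:18544814-18545063. HRC (the histidine-rich calcium-binding protein of the sarcoplasmic reticulum) lies at chr6:54337348-54341638 on the minus strand, with its promoter at chr6:54341639-54341888.
ATP2A1: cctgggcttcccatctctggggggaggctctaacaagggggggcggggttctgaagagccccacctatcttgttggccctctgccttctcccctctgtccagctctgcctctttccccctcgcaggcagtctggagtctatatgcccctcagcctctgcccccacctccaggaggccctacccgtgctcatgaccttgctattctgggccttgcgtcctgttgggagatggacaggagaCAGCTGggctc
HRC: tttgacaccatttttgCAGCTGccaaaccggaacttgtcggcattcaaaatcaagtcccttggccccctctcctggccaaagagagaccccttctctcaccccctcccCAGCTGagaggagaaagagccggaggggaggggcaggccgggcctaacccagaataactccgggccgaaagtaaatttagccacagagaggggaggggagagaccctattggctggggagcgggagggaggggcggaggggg
The GC box GGGCGG, the letters bound by the Sp1 family, occurred once in each window and was left in lower case. The E-box CAGCTG ended shortly before the ATP2A1 start, its first base at position -11, and occurred at positions -234 and -142 of the HRC window. The window of SRL, the other calcium-handling member, held neither motif.

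Among the 88 genes of the set with a unique RefSeq position, 57 (64.8%) held the GC box, against 58.0% of the 1168 tested genes with a position and 45.9% of 19559 promoters of protein-coding genes. The cyclic AMP response element TGACGTCA was held by 5 of them (5.68%), against 2.05% of the tested genes and 1.70% of all promoters. Shares near those of the tested genes were found for the TATA box TATAAA (6.82% against 6.59%), the clock E-box CACGTG (7.95% against 6.93%) and the MEF2 site (2.27% against 2.23%). The E-box CAGCTG (9.09% against 12.7%), the CCAAT box (25% against 32.8%) and the ETS site CCGGAAG (7.95% against 11.9%) were held by smaller shares of the set than of the tested genes. The ERR site TNAAGGTCA and the CArG box of the serum response factor were held by 2 of the 88 each, the NRF1 site by 1 and the FoxO site GTAAACA by 0. All motifs were searched on both strands, the GC box can overlap another GC box, and a match of letters is not a bound site.

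The score placed AL63 (15.5), AL46 (10.5) and BI34 (9.66) at one end and AL44 (-13.9), BI36 (-8.06), BI25 (-7.19), BI42 (-5.94) and BI37 (-3.02) at the other, with AL52 (2.03) and AL49 (0.42) between them. The component held 36.4% of the variance of the 1513 genes, against 13.7% for the second component. Both breeds reached both ends of it. AL pigs had a mean score of 2.91 ± 11.3 (SD, n = 5), BI pigs one of -2.91 ± 7.28 (SD, n = 5), and breed accounted for 10.5% of the sum of squares of the scores. A single BI pig, BI34, had a positive score, and a single AL pig, AL44, had a negative one.

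**Figure D1:**
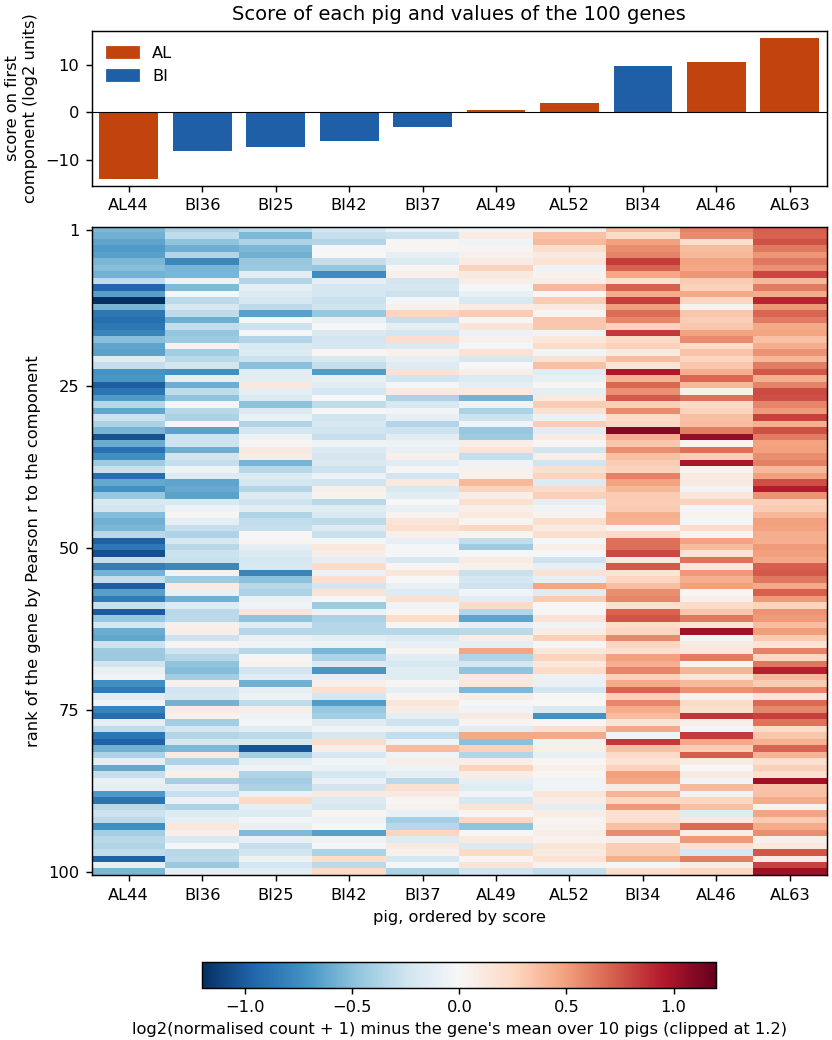
The upper bars give the score of each pig on the first component (log2 units, AL red, BI blue), and the lower map gives log2(normalised count + 1) of the 100 genes, each minus its mean over the 10 pigs, with genes ranked by r from top to bottom and pigs ordered by score. AL44 is the bluest column, and BI34, AL46 and AL63 form the red block at the right.

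The r of the set ran from 0.980 for CHCHD10 to 0.758 for MYO18B. At the limit, PKM (0.759), APBB1 (0.758) and MYO18B (0.758) were the last taken, and PGAM2 (0.758), TRIR (0.756) and MYLK2 (0.752) were the first not taken, so that the edge cuts through the glycolytic genes. The rule on symbols left out 6 genes with an r above the last member. Among them were RPL3L (0.872), RPL28 (0.817), RPS28 (0.806), RPS2 (0.794) and NDUFB10 (0.792), of which RPL3L encodes a ribosomal protein particular to striated muscle. Highest values fell in AL63 for 51 genes, in BI34 for 32 and in AL46 for 17. Lowest values fell in AL44 for 61 genes, in BI36 for 16, in BI25 for 12, in BI42 for 9, and in AL49 and BI37 for 1 each. In 50 of the 100 genes, AL63, AL46 and BI34 all lay above the other 7 pigs, against 69 of the 1513 tested genes. These are the pigs with the highest scores, so that this count is largely built in by the choice. The value in AL63 was 2.11 times that in AL44 at the median of the set, with a range from 1.22 times (HSP90AB1) to 4.69 times (EPN1), against 0.973 times over all tested genes. The SD of log2 values over the 10 pigs had a median of 0.39 in the set and 0.32 in all tested genes.

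The list of glycolysis and glycogen enzymes, to which the creatine kinase CKM was added, had the most members in the set. They were 6 of the 16 tested genes of that list (TPI1, PYGM, GYS1, ALDOA, CKM and PKM). Of the 16, 13 had an r above 0, as did 725 of the 1513 tested genes, and the median r was 0.74 against -0.05 over all tested genes. Tested genes of this and the following lists also entered the component. GYS1, the muscle glycogen synthase, makes glycogen. Its normalised counts in the order AL44, AL46, AL49, AL52 and AL63 were 14639, 20121, 18945, 15339.9 and 20156, and in the order BI25, BI34, BI36, BI37 and BI42 they were 13930.1, 20310.4, 14581, 16565 and 13193. PYGM, the muscle glycogen phosphorylase that breaks glycogen down, had 899, 2358, 1652, 1799 and 2698 in the same AL pigs and 1947, 2881, 1191, 1765 and 1625 in the same BI pigs. The counts of GYS1 and PYGM were thus both highest in the 3 pigs at the positive end, though PYGM spanned 3.0-fold between AL44 and AL63 and GYS1 1.38-fold. FTL, a ferritin gene on the opposite strand 1843 bases from GYS1, had a mean count of 20.4, against 16778 for GYS1. Whether the counting used the strand is not stated, so reads of these genes cannot be told apart. ALDOA (aldolase A) had 2385, 6588, 3835, 4656 and 6342 in AL and 4793, 7453, 4086, 4405 and 4631 in BI. For TPI1 (triosephosphate isomerase) the counts were 138, 298, 204, 217 and 295 in AL and 194, 296, 218, 181 and 188 in BI. CKM, the muscle creatine kinase, had 1994, 5000.2, 3124, 3964 and 5774 in AL and 4429, 6520.5, 3179.9, 4048 and 3806 in BI. In the 5 genes other than GYS1, AL44 was the lowest of the 10 pigs. PKM (pyruvate kinase) had 259, 775, 515, 567 and 542 in AL and 486, 687, 407, 437 and 587 in BI, with its maximum in AL46.

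The list did not move as a block. Among its genes outside the set, those with the highest mean were GAPDH (r 0.74), ENO3 (enolase of muscle, 0.43) and PGAM2 (phosphoglycerate mutase of muscle, 0.758), the last of which missed the set by 1 rank. The 3 tested genes of the list with a negative r, named after their values were seen, were PFKM (phosphofructokinase, -0.29), PGK1 (phosphoglycerate kinase, -0.45) and UGP2, which makes the UDP-glucose for glycogen (-0.70).

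Fast-fibre genes contributed ATP2A1, ACTN3 and MYBPC2. All 10 tested genes of the fast-fibre list had an r above 0, against 725 of the 1513 tested genes, with a median of 0.61. ATP2A1 had normalised counts of 2314, 5419, 4408, 5829.6 and 6878 in the 5 AL pigs and 4149.7, 7343, 3086, 3874 and 3882 in the 5 BI pigs, in the order given above. The pump was lowest in AL44 and highest in BI34. ACTN3, the alpha-actinin of the fast Z-disc, had 762, 1845, 1262, 1282 and 1845 in AL and 1310.5, 2378, 959, 1127 and 1172 in BI. MYBPC2, the fast myosin-binding protein C, had 1207, 2251, 1426, 2109.8 and 2656 in AL and 1661, 2755, 1473, 1819 and 1871 in BI. In each of these genes BI34 was the highest pig of the 10 and AL44 the lowest. The fast troponins followed less closely, with r of 0.21 for TNNT3, 0.50 for TNNI2 and 0.56 for TNNC2.

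Slow-fibre genes held 1 member of 5 tested, CA3, the carbonic anhydrase of slow muscle, and a median r of 0.19. CA3 had 223, 361, 313, 257 and 288 in AL and 259, 402, 215, 288 and 245 in BI. TNNT1 (0.15) and TNNI1 (0.27), which are slow troponins, and ATP2A2 (0.15), the slow calcium pump, had low positive r. All 5 tested slow-fibre genes had a positive r, as did all 10 tested fast-fibre genes, and the medians of both lists lay above that of all tested genes.

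**Figure D2:**
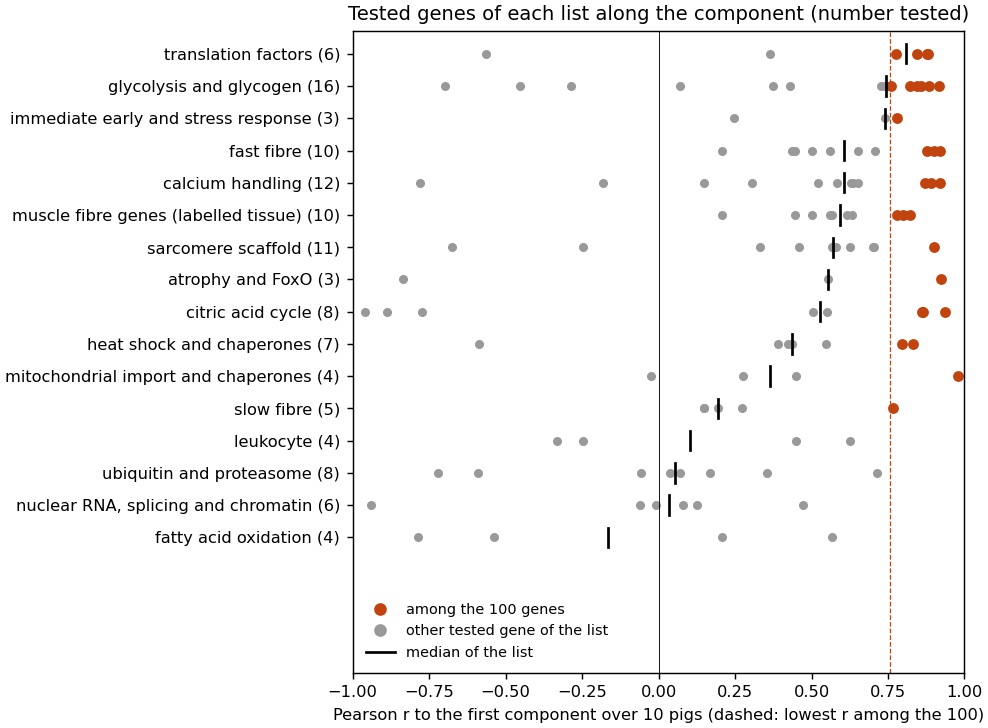
Each point is a tested gene, placed by its Pearson r to the first component over 10 pigs, for the lists with at least 3 tested genes; red points belong to the 100 genes and the black bar is the median of the list. Translation factors and glycolysis sit furthest to the right, and fatty acid oxidation furthest to the left.

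Calcium handling held 3 members of 12 tested genes (ATP2A1, HRC and SRL), 10 genes with an r above 0 and a median r of 0.61. HRC, which binds calcium inside the sarcoplasmic reticulum, had 226, 299, 219, 285 and 330.3 in AL and 208, 323, 199.98, 235 and 219 in BI. SRL, the reticulum protein sarcalumenin, had 154, 317, 213, 272 and 379 in AL and 273, 330.4, 222, 269 and 224 in BI. HRC spanned 1.46-fold between AL44 and AL63 and SRL 2.45-fold. TRDN, the triadin that anchors the calcium release unit, went the other way (r -0.78), and CASQ1, the calcium store of the fast fibre, had an r of 0.65. The sarcomere scaffold list held 1 member of 11 tested, ACTN3, with 9 genes at an r above 0 and a median of 0.57. Of the genes that mark the labelled tissue, CKM, TPM2 and DES belonged to the set, and all 10 tested had an r above 0 (median 0.59). DES, the desmin of the intermediate filaments, had 643, 1730.0, 892, 1212 and 1684 in AL and 1104, 2272, 1106, 1228 and 1471 in BI. TPM2, a tropomyosin, had 1106, 2905, 1372, 1694 and 2994 in AL and 1862, 3229, 1711, 1855 and 2266 in BI.

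Mitochondrial genes were divided. CHCHD10, a small protein of the mitochondrial intermembrane space, had the highest r of the set, with 84.0, 185, 118, 116 and 201 in AL and 97.2, 159.7, 93.96, 114 and 105 in BI. AL44 was the lowest pig and AL63 the highest, with AL46 and BI34 next. OGDH, a subunit of the 2-oxoglutarate dehydrogenase of the citric acid cycle, had 71.8, 148, 113, 118 and 164 in AL and 76.6, 189, 61.2, 94.2 and 86.6 in BI. MDH2 (mitochondrial malate dehydrogenase), another citric acid cycle gene of the set, ran from 33.6 (BI36) to 90.5 (AL63). Of 8 tested genes of that cycle, 5 had an r above 0 (median 0.53), and IDH3G, a subunit of isocitrate dehydrogenase, had an r of 0.51. PDHB (-0.96), a subunit of pyruvate dehydrogenase, and IDH3B (-0.89), another of isocitrate dehydrogenase, were among the 100 genes with the lowest r. COX7A1, the muscle form of a subunit of respiratory complex IV, had counts from 1621 (BI25) to 2916 (BI34) and was 1 of 2 tested respiratory-chain genes outside the NDUF family. POLRMT, the RNA polymerase of mitochondria, had 765, 1161, 1207, 1215 and 1622 in AL and 907, 1600.4, 989.6, 1169.5 and 955 in BI. Fatty acid oxidation had 0 members of 4 tested genes and a median r of -0.17, and mitochondrial import held only CHCHD10 of 4 tested (median 0.36). Outside the component, 7 of 9 respiratory-chain genes of that list with a mean of at least 10 had an r above 0 (median 0.78). Such genes of the other mitochondrial lists had an r above 0 in 2 of 2 (citric acid cycle, median 0.46), 2 of 2 (fatty acid oxidation, 0.32) and 2 of 4 (import, 0.31).

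The translation list had the highest median r of the lists with at least 3 tested genes (0.81), with 4 of 6 tested genes in the set and 5 with an r above 0. EEF2, the elongation factor that moves the ribosome along, had 102, 259, 110.0, 177 and 280.5 in AL and 146, 273, 117, 126 and 165 in BI. EEF1A2, the elongation factor of muscle and neurons, had 1392, 3292, 1875, 2642 and 3598 in AL and 2362, 3984, 1996, 2476 and 2743 in BI. Both were lowest in AL44. EIF1, which helps the ribosome find the start codon, ran from 30.2 (BI36) to 104 (BI34), and EEF1D, which recharges the elongation factor, from 113 (BI25) to 249 (AL46). Outside the set, TPT1, a growth-related protein, had an r of 0.37 and EIF4A2, a helicase of initiation, one of -0.56. The chaperones HSP90AA1 and HSP90AB1 were 2 of 7 tested heat shock genes, 6 of which had an r above 0 (median 0.44), and HSP90AB1 ran from 417 (BI36) to 590.4 (BI34).

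Next to these lists, several members near the top of the ranking had other roles. MAP7D1, which binds microtubules, had 215, 474, 342, 410.0 and 525 in AL and 219.9, 377, 259, 268 and 264 in BI. PGAP2, which remodels the lipid anchor of surface proteins, had 239.8, 433, 364, 487 and 633 in AL and 289, 525, 267, 378 and 293 in BI. In MAP7D1 every BI pig lay below AL46, AL52 and AL63, while AL44 lay below all 5 of them. MBD3, part of the nucleosome remodelling and deacetylase complex, ran from 58.5 (AL44) to 139.9 (BI34). FEM1A, a substrate receptor of a ubiquitin ligase, ran from 59.5 (AL44) to 149 (AL63). RBM38, an RNA-binding protein, ran from 53.9 (BI42) to 159 (AL63), and NELFCD, a subunit of the factor that pauses RNA polymerase II, from 329 (BI25) to 552 (AL63). RXRA, the shared partner of many nuclear receptors, ran from 48.1 (AL44) to 145 (AL63), and NFIX, a transcription factor of the muscle fibre programme, from 107 (AL44) to 311 (AL63). FBXO31, an F-box protein, was the single member among 3 tested genes of the atrophy list (median r 0.55) and ran from 45.7 (BI36) to 111 (BI34).

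Spread among pigs was widest in EPN1, an adaptor of endocytosis, with 54.4, 112, 49.996, 62.1 and 51.8 in BI and a range from 24.5 (AL44) to 119 (AL63) in AL. EIF1 and PLIN4, a perilipin on lipid droplets, came next by the SD of log2 values, and PLIN4 ran from 49.1 (BI36) to 162 (BI34). FHL3, a LIM-domain protein of muscle, ran from 26.4 (AL44) to 93.0 (AL46), PROB1 from 27.2 (BI25) to 92.7 (AL63), and the unnamed gene ENSSSCG00000029830 from 45.3 (AL44) to 198 (AL46). Counts this low rest on few reads, and the reads counted on genes ran from 2298045 to 3343194 for each pig. The members with the highest mean counts, not corrected for length, were RABEP2, an effector of endosomal Rab proteins (from 214064 in AL44 to 489745 in BI34), GYS1, the Golgi kinase STK16 (from 10285 in BI37 to 16966 in AL63), FLOT1 or flotillin 1 (from 4552 in AL44 to 7946 in AL63), the ATP receptor P2RY11 (from 4618 in AL44 to 6557 in BI34), SLC35B2, the Golgi carrier of activated sulphate (from 3422 in BI25 to 7218 in AL63), ALDOA and ATP2A1. In each of these genes with high counts the highest pig was AL63 or BI34. The lowest pig was AL44 except in GYS1 (BI42), STK16 (BI37) and SLC35B2 (BI25). P2RY11 had the smallest SD of log2 values in the set (0.15). RABEP2, GYS1, STK16, FLOT1, P2RY11 and SLC35B2 each lie within 5 kb of a gene on the opposite strand. Reads of such partners cannot be told apart here, as described below.

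**Figure D3:**
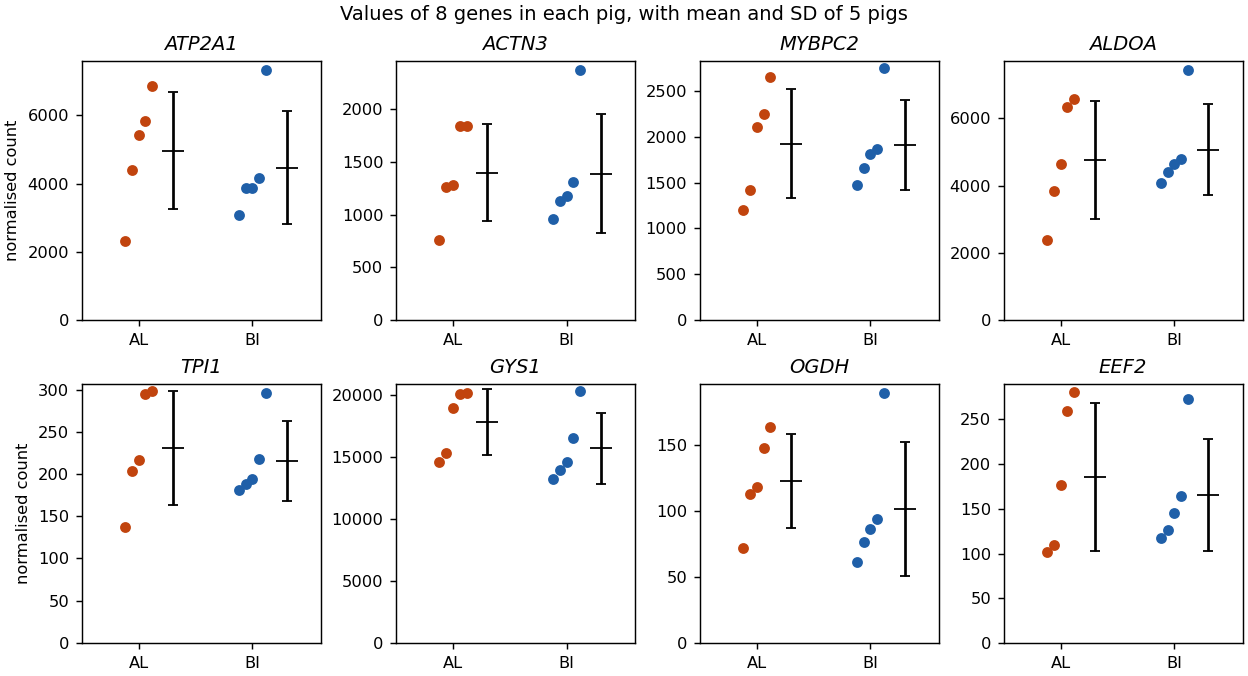
Normalised count of 8 of the 100 genes in each pig (points, sorted within the breed), with the mean and SD of 5 pigs as a black bar beside them, on axes from 0. BI34 stands above the other 4 BI pigs in each panel, and the means of AL and BI differ by less than their SD in each.

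The comparison that the study was designed for, AL against BI, was then made for the 100 genes. With DESeq2 and its own filter on counts, the paper reported differentially expressed genes between the breeds from the same pigs. Of those genes, 19 were among the 1513 tested here and 0 were among the 100. None of the 100 differed between the breeds by limma at an adjusted p under 0.05 (Benjamini-Hochberg over 1513 genes), and the share called among all tested genes was 0% as well, with 112 tested genes at an unadjusted p under 0.05 in limma, 16 adjusted calls by DESeq2 and 0 by edgeR. At an unadjusted p under 0.05, 1 of the 100 passed, against 7.4% of all tested genes. In 0 of the 100 did the 5 AL values and the 5 BI values not overlap, against 1.45% of all tested genes. The genes were chosen for following a score that spread widely within each breed. Low shares of breed calls and of genes without overlap are thus partly built in by the choice. The log2 difference, AL minus BI, ran from -0.26 (DES) to 0.48 (JUN) with a median of 0.13, against -0.05 over all tested genes. It was above 0 for 77 of the 100 genes, against 635 of the 1513 tested genes. The 100 were chosen to follow a single score, with means of 2.91 in AL and -2.91 in BI, so they are not separate observations of breed. The number above 0 was 90 with TMM scaling, 98 without AL44 and 53 without AL63. The median was 0.26 without AL44 and 0.01 without AL63.

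APBB1, which binds the amyloid precursor protein, was the gene with the unadjusted p under 0.05. Its counts were 627, 712, 744, 688 and 1176 in AL and 581, 666, 490.5, 658 and 536 in BI. AL63 was far above the other AL pigs, and BI34 and BI37 lay above AL44. The log2 difference was 0.40 ± 0.17 (SE), with an adjusted p of 0.603 by limma and an exact two-sided permutation p of 0.0317, where the smallest p that 5 against 5 pigs allow is 0.00794. JUN, a subunit of the AP-1 transcription factor, had 33.99, 113, 86.3, 86.3 and 79.2 in AL and 50.2, 60.6, 49.1, 51.1 and 54.9 in BI. Of the 5 AL pigs 4 were above every BI pig and AL44 was below all of them (log2 difference 0.48 ± 0.28, adjusted p = 0.713 by limma, exact permutation p = 0.159). MAP7D1 gave 0.46 ± 0.23 (adjusted p = 0.682, exact permutation p = 0.111), the unnamed gene ENSSSCG00000036812 gave 0.40 ± 0.21 (adjusted p = 0.682, exact permutation p = 0.0714) and GTPBP1, a GTP-binding protein, gave 0.36 ± 0.20 (adjusted p = 0.713, exact permutation p = 0.159). Over the 17 alternatives the adjusted p ran from 0.286 to 0.905 for APBB1, from 0.121 to 0.978 for JUN, from 0.153 to 0.913 for MAP7D1, from 0.302 to 0.966 for ENSSSCG00000036812 and from 0.234 to 0.978 for GTPBP1. Each of the 5 had its lowest adjusted p without AL44. Leaving out AL63 moved APBB1 to 0.25 and JUN moved to 0.33 without AL46 and 0.76 without AL44 on the log2 scale.

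None of the glycolytic and fast-fibre members, nor OGDH or CHCHD10, differed between the breeds at an adjusted p under 0.05 by limma. Over the tested genes of each list the median log2 difference was -0.15 for glycolysis and glycogen and -0.18 for fast fibre. CKM had a difference of -0.20 ± 0.27 (adjusted p = 0.885 by limma). The mean of ATP2A1 was 4969.8 ± 1729 (SD, n = 5) among AL pigs and 4467 ± 1656 (SD, n = 5) among BI pigs, a log2 difference of 0.13 ± 0.29 (adjusted p = 0.932 by limma). ACTN3 had 1399 ± 457 against 1389.5 ± 567, a difference of 0.02 ± 0.27 (adjusted p = 0.983). ALDOA had 4761 ± 1757 against 5073 ± 1357 (-0.15 ± 0.26, adjusted p = 0.910), and GYS1 had 17840.2 ± 2659 against 15716 ± 2858 (0.19 ± 0.15, adjusted p = 0.820). For OGDH the difference was 0.33 ± 0.30 (adjusted p = 0.849) and for CHCHD10 0.26 ± 0.25 (adjusted p = 0.849). In each of these genes the means of the breeds differed by less than the SD among the AL pigs. Of the 28 members on any of the 24 lists, 0 reached an unadjusted p under 0.05 by limma, against 112 of the 1513 tested genes. A higher mean log2 value in AL was found for 19 of the 28, against 635 of the 1513.

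The choice was repeated in each breed alone, on pigs that are not shared. The first component of the 5 AL pigs gave 100 genes of which 57 belonged to the set, and that of the 5 BI pigs gave 36. The lists from AL alone and BI alone shared 17 genes, 17% of each, while 100 genes make up 6.61% of those tested, and all 17 belonged to the set. The named ones were CHCHD10, PGAP2, OGDH, FBXO31, ATP2A1, EPN1, RXRA, ACTN3, PLIN4, MYBPC2, EIF1, SRL, ALDOA, CKM and TESK1, a kinase. Of the genes chosen in AL alone, 87 had a positive r to the component of the BI pigs, as did 52.9% of all tested genes. Of those chosen in BI alone, 81 had a positive r to the component of the AL pigs, as did 44.8% of all tested genes. The direction of each component was set by the component of all 10 pigs, and 5 pigs place a component loosely. The pigs of each breed were also among the 10 that chose the set, so that the overlaps with the set were partly built in. Genes that move together are not independent, so the 6.61% is a share for scale and not a chance level.

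At the median, the exons of the 100 genes were richer in G and C than those of the tested genes, a property that the choice did not use and that is given without a test. The exons of the 88 placed genes had a median GC content of 60.5% (quartiles 57.4% and 64.1%), those of all 1168 placed tested genes 56.4%, and those of the 84 placed genes among the 100 with the lowest r 45.2%. Of the 88, 36 (40.9%) lay above the upper quartile of the tested genes (61.6%) and 2 lay below the lower quartile (47.9%). Of the 84, 4 lay above the upper quartile and 53 below the lower. CHCHD10 had 68.2% GC, EPN1 69.3% and EEF1D 69.9%, and the exceptions included CA3 with 44.6% and EIF1 with 48.4%. Exon length had a median of 3478 bases in the set and 3290.5 in all tested genes. Across the 1168 tested genes, which are not independent of each other, r to the component and GC content had a Pearson correlation of 0.38 (Spearman 0.37). The 1608 genes that did not enter the component but had a mean of at least 10 over the pigs gave 0.35 (Spearman 0.35). The genes counted here are named genes with a unique position, 92.4% of the named tested genes.

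**Figure D4:**
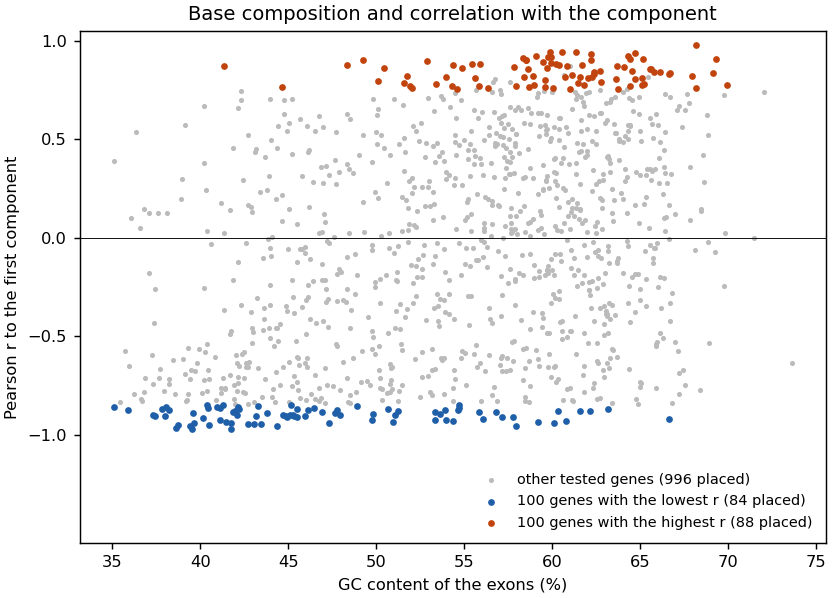
GC content of the exons (%) against Pearson r to the first component for the 1168 tested genes with a unique position, with the 100 genes of highest r in red (88 placed) and the 100 of lowest r in blue (84 placed). The red points crowd to the right of the blue ones, with medians of 60.5% and 45.2%.

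Genes outside the set showed how base composition moved from pig to pig. The median log2 deviation of the GC-rich tested genes that belong to neither end of the ranking minus that of the GC-poor ones (above the upper and below the lower quartile) was 0.31 in AL63, 0.20 in BI34 and 0.19 in AL46, the 3 pigs at the positive end. It was 0.08 in BI37 and 0.02 in BI36, and below 0 in BI42 (-0.01), AL44 (-0.13), AL49 (-0.16), BI25 (-0.25) and AL52 (-0.25). AL44, the pig with the lowest score, did not have the lowest value. Among genes that did not enter the component the same difference was 0.55 in AL63, 0.37 in AL46 and 0.36 in BI34, and lowest in BI25 (-0.34) and AL44 (-0.33). The part of base composition in the values of the 100 genes was not tested.

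The sources used here do not state whether the counting used the strand of the reads, so that reads of a gene and of its partner on the opposite strand cannot be told apart. A gene on the opposite strand lay within 5 kb of 59 of the 88 placed genes (67.0%), against 89.98% of the placed tested genes and 97.6% of the placed genes with the lowest r, and an overlapping one was found for 34.1%, 53.1% and 66.7%. For 25 of the 88 the opposite gene was itself tested, and 21 of 26 such partners had an r above 0 (median 0.55), against 725 of the 1513 tested genes. Of these partners 6 were members, whose r is high by the choice. The 20 partners outside the set had a median r of 0.40, against -0.05 over all tested genes. In 3 pairs both genes belonged to the set, namely ATP2A1 with RABEP2, which overlap by 49 bases tail to tail, HSP90AB1 with SLC35B2, which overlap by 237 bases, and the beta-tubulin TUBB with FLOT1, 916 bases apart. Among members with a tested partner, 7 had a mean more than 10-fold below a partner and 7 more than 10-fold above one. Means were 4718 for ATP2A1 and 337001 for RABEP2, 1394 for ACTN3 and 153260 for its partner CTSF, and 223 for TPI1 and 88610.5 for its partner SPSB2. The cause of these levels was not tested.

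The level of a gene relative to its partner was compared between pigs. ATP2A1 had 1.08% of the normalised count of RABEP2 in AL44, 1.12% in BI36, between 1.27% (AL49) and 1.499% (BI34) in the remaining pigs, and 1.67% in AL46 and 1.68% in AL63. AL pigs averaged 1.43% ± 0.260 (SD, n = 5), BI pigs 1.31% ± 0.136 (SD, n = 5). ACTN3 had from 0.672% (BI36) to 1.32% (AL46) of the count of CTSF, a cathepsin gene 127 bases away. MAP4, a microtubule protein of the set, had from 0.658% (AL44) to 1.43% (AL63) of DHX30, and TPI1 from 0.194% (AL49) to 0.374% (AL46) of SPSB2. In these 4 pairs the highest ratios were those of AL46 or AL63. TUBB over FLOT1 ran from 10.4% (AL44) to 14.1% (BI37) and HSP90AB1 over SLC35B2 from 7.43% (AL63) to 13.5% (BI25), which ordered the pigs differently. The members of the first 4 pairs were chosen for their values and their partners, RABEP2 apart, were not. Their ratios can thus follow the score through the choice and are a description, and a cause was not tested.

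**Figure D5:**
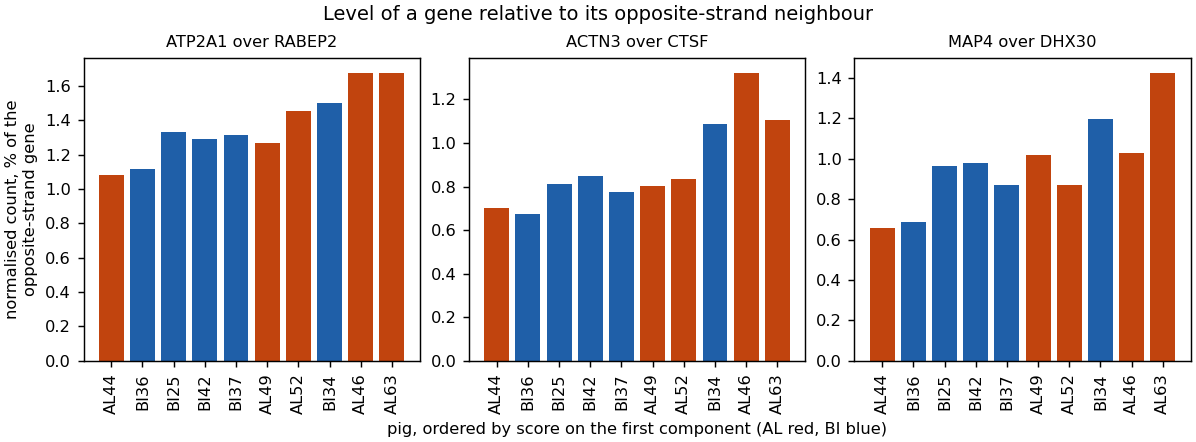
Normalised count of ATP2A1, ACTN3 and MAP4 as a percentage of that of the tested gene on the opposite strand, RABEP2, CTSF and DHX30, in each pig, with pigs ordered by score and bars from 0 (AL red, BI blue). The bars of AL46 or AL63 are the tallest in each panel.

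Positions of the 88 genes were spread over the chromosomes, with 17 on chromosome 2, 15 on chromosome 6, 10 on chromosome 7 and 9 on chromosome 3. GYS1, HRC, MYBPC2 and CKM lay on chromosome 6, between 51704021 (the first base of CKM) and 55310184 (the last base of MYBPC2).

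Library measures were set beside the component. The share of reads taken by the 100 genes ran from 13.4% in BI36 and 13.5% in AL44 to 19.9% in BI34 and 20.1% in AL63, and without RABEP2 from 3.43% to 5.202%. The score had a Pearson r of -0.07 with the reads counted on genes (permutation p = 0.850, Spearman rho -0.08, permutation p = 0.836, adjusted p = 0.850 for both), and r was 0.46 without BI25 and BI36. With the number of genes that had a read, from 9112 in BI34 to 10308 in BI25, r was -0.70 (permutation p = 0.0279, adjusted over the 2 measures 0.0557) and rho -0.71 (permutation p = 0.0274, adjusted 0.0557). Without AL63 and BI34, the pigs whose number of genes lay farthest from the median, r was -0.36. These relations were not computed within a breed, and no batch is named in the labels. The 10 genes with the most reads took from 48.5% (AL44) to 60.3% (BI34) of the reads, and the mitochondrial genome from 3.19% (AL46) to 6.68% (BI34).

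The genes that mark skeletal muscle were present in every pig. For the 10 of 15 listed that the table holds, the summed normalised count ran from 19840 (AL44) to 41328 (AL46) in AL and from 35297 (BI37) to 55838 (BI34) in BI, and 0 of them were at 0. Markers of other cell types gave the following sums, AL before BI. The 12 adipocyte genes summed to 51.6 to 101 in AL and 69.7 to 112 in BI, with PPARG and DGAT2 at 0 in every pig and 0 genes tested. The erythrocyte genes summed to 3.39 to 10.2 and 7.39 to 17.3 (1 of 5 at 0), and the satellite cell genes to 20.5 to 40.0 and 24.1 to 38.0 (3 of 10 at 0), with 0 genes of either tested. The matrix genes of fibroblasts summed to 134 to 462 in AL, with AL46 highest, and to 127 to 228 in BI (0 of 15 at 0), and 6 of 6 of them that lay outside the component with a mean of at least 10 had an r above 0 (median 0.62). The immediate early genes showed the same, with JUN in the set, 3 of 3 tested genes at an r above 0 (median 0.74), 7 of 7 outside the component at an r above 0 (median 0.61) and sums highest in AL46 (838) and lowest in BI37 (249.5). The endothelial genes summed to 1574 to 3019.9 and 1804 to 3004 (0 of 10 at 0), nearly all of it EGFL7, a secreted endothelial factor and the single member among 2 tested (median r 0.31). The smooth muscle genes summed to 810.0 to 1914 and 1386 to 2626 (0 of 10 at 0, median r 0.33 over 2 tested), most of it DES, which the fibres make too. The leukocyte genes summed to 5784 to 6689 and 4607 to 7224 (3 of 13 at 0, the T cell genes CD3E and CD2 and the lysozyme LYZ), most of it ITGAM, with 0 members of 4 tested (median r 0.10). Outside the component with a mean of at least 10, 1 of 3 adipocyte genes had an r above 0 (median -0.57), as did 0 of 1 leukocyte gene (-0.59). For smooth muscle and for satellite cells it was 1 of 1 (0.09 and 0.06). The part of these cell types in the values of the 100 genes was not tested.

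The remaining lists held no member. They were the ubiquitin and proteasome list with 8 tested genes (median r 0.05), the antioxidant list with 2 (0.03) and the splicing and chromatin list with 6 (0.04), of which 1 was among the 100 genes with the lowest r.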

How the data were processed

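RNA of longissimus lumborum was sequenced from 5 AL and 5 BI pigs, and each pig's column was mapped to its breed through the animal name in the labels, with 0 columns unmapped. According to the study's methods and processing notes, the authors used Trim Galore 0.5.0 for trimming and HISAT2 2.1.0 for alignment to Sscrofa11.1, converted files with SAMtools 1.9, counted reads per gene with HTSeq 0.11.1 (strand setting not given in the sources used here) and normalised with DESeq2. The deposited signal is each gene count divided by its pig's DESeq2 size factor. The authors also deposited log2 fold changes, p-values and related scores of their own comparison, which were not used. Dividing by the smallest value above 0 gave whole reads for 100% of values (tolerance 0.01), between 2298045 and 3343194 for each pig. A floor of 3 reads is 2.47 to 3.39 normalised counts and covers counting error only.

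The members and lists were chosen with earlier results of these data known. Of 25880 genes, 14857 had a symbol, and 14681 had a read. The 1513 genes (1264 named) that averaged 50 or more in AL and also in BI were tested with limma 3.58.1 (R 4.3.3), with intensity trend, on log2(value + 1), and fold changes on that scale understate those of low genes. Adjusted p is by Benjamini-Hochberg over all 1513. Single genes were also tested by an exact two-sided permutation of 252 splits, and library measures by 100000 permutations. Positions, exons and promoters came from RefSeq annotation of Sscrofa11.1 by unique symbol, while counting used Ensembl models. MYLPF was read as MYL11. Alternatives were pseudocounts 0.1 and 10, other filters, TMM, edgeR 4.0.16 and DESeq2 1.42.0 on the recovered reads, and each pig left out. The tests were checked on simulated data.

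Members named are the 15 of highest r, the 8 of highest mean, the 8 of largest SD, those on any of 24 lists, the 5 of smallest breed p and the last 3 inside the limit, with the first 3 outside it. Of listed genes outside the set, up to 3 of highest mean were named for a list. Some members, symbols and sequences are not reported here. TESK1, TUBB and MAP4 and the partners on the opposite strand were named after their values were seen. Tables and figures used Python 3.11.15 with pandas 2.3.3, numpy 2.4.6, matplotlib 3.10.9 and scipy 1.17.1.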

Additional observations from a re-analysis of the deposited data

Results flagged for a closer look

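In each breed the highest and the lowest of 5 pigs were compared with the others by Dixon's ratio (the gap to the nearest pig over the range, limit 0.71), for the score and for the 51 named genes of the set. Of the 104 groups 11 passed the limit. The genes were chosen to follow the same score, so that these groups are not independent. Flags of a pig that stands apart on the score are largely built in by the choice, and no chance level applies to their number. The score itself was flagged because BI34 (9.66) stood apart from the other BI pigs (-8.06 to -3.02).

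BI34 stood apart from the other BI pigs in 9 genes. Its normalised count was 189 for OGDH (others 61.2 to 94.2), 7343 for ATP2A1 (3086 to 4149.7), 112 for EPN1 (49.996 to 62.1), 2378 for ACTN3 (959 to 1310.5) and 323 for HRC (199.98 to 235). It was 104 for EIF1 (30.2 to 41.2), 129 for the unnamed gene ENSSSCG00000029830 (78.2 to 90.6), 7453 for ALDOA (4086 to 4793) and 489745 for RABEP2 (276094 to 312224). Among the AL pigs, AL63 stood apart for APBB1, with 1176 against 627 to 744 in the others.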

How the results depend on the processing

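No paired analysis was possible because the animal numbers of the breeds are not shared. Among all tested genes, the count of adjusted calls between the breeds was 0 in the main test, 1 with the minimum of 50 asked of either breed alone, 40 of 14681 with no filter on low values, 16 with DESeq2, and 0 to 1 with a pig left out (1 without AL44 and 1 without BI37). None of these calls was a member. Members at an unadjusted p under 0.05 numbered 1 in the main test, 2 with no filter, 3 with edgeR and 3 with DESeq2, and 0 to 9 with a pig left out (9 without AL44, 7 without BI34, and 0 without AL49, AL63, BI25, BI36 or BI42).

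Of the 100 genes, 35 were chosen again with no filter on low values, 63 by loading in place of r, 57 in AL alone, 36 in BI alone, and 69 to 92 with a pig left out. The component held 36.4% of the variance, 20.1% with no filter, 30.3% with genes scaled to unit variance and 32.0% to 39.8% with a pig left out. The r of the score with the number of genes with a read ran from -0.85 (without AL46) to -0.59 (without AL63, exact permutation p = 0.0955) and was no longer under 0.05 without AL44, AL63, BI34 or BI36. The r with reads ran from -0.41 (without AL44) to 0.19 (without AL63). No direction of the 5 genes named for their breed p reversed. The causes of these changes were not tested.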
